A study of Rattus norvegicus with 63 samples.

Results

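The 5 enzymes of the urea cycle were followed at the RNA level in rat livers after short dosing with 15 compounds. The genes Cps1, Otc, Ass1, Asl and Arg1 were taken by their symbols in the array annotation, which held all 5 among 10411 genes with a symbol of their own. Where a gene had more than 1 probe set, the one brightest on average across the 63 arrays was read. Otc, Ass1 and Arg1 had 1 such probe set, and Cps1 and Asl had 2.

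Male Wistar Hanover rats, 8 to 10 weeks old at the start, were dosed daily by gastric gavage, and 1 liver array was made per animal. By the labels, 6 compounds shared the first methylcellulose control set (MC set 1, vehicle for 14 days): acetamide (AA, 3000 mg/kg per day), dehydroepiandrosterone (DHEA, 600) and methylcarbamate (Mcarb, 400) for 14 days, methapyrilene (MPy, 60) and thioacetamide (TAA, 19.2) for 7 days, and Wy-14643 (Wy, 60) for 3 days. Cefuroxime (CFX, 250) and nifedipine (Nif, 3) were given for 14 days and set against MC set 2. C.I. Direct Black (CIDB, 146) and dimethylnitrosamine (DMN, 4) were given for 7 days and set against corn oil controls of 7 days (CO set 3). Cyproterone acetate (CPA, 100) was given for 14 days with corn oil controls of its own (CO set 4). Diethylstilbestrol (DES, 10) and piperonylbutoxide (PBO, 1200) for 3 days and ethionine (ETH, 200) for 14 days shared MC set 5. Phenobarbital (PB, dose not given in the labels) was given for 14 days with MC set 6. Every compound had 3 arrays and every control set 3, which made 45 treated and 18 vehicle arrays. Of the 5 rats of a treatment group, 3 with some liver change at histopathology were chosen. Replicates are therefore different animals, and the choice was not random but favoured affected livers. The control groups are described as equal in size, without a rule of choice. The controls of DES, PBO, Wy, MPy and TAA had been dosed for 14 days by their labels, longer than the compound, so length of vehicle dosing and compound cannot be told apart there. The study's methods describe its vehicle controls as matched in time, so the labels and the methods differ on this. Albumin (Alb), which defines hepatocytes, had group means between 14.94 and 15.07 log2, near the top of the scale at 15.11, and was called in 0 of 15 compounds.

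The urea cycle turns ammonia, which arises from the breakdown of amino acids and is toxic to the brain, into urea for excretion. CPS1 joins ammonia and bicarbonate to carbamoyl phosphate and OTC transfers it to ornithine, both in mitochondria. In the cytosol ASS1 condenses citrulline with aspartate, ASL splits the product into arginine and fumarate, and ARG1 releases urea and regenerates ornithine. In liver the complete cycle runs in hepatocytes, mainly those around the portal vein, and its genes are known to respond to glucocorticoids, glucagon and dietary protein.

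The RefSeq promoter windows of the genes, 250 bases before to 50 after a start site on GRCr8, are shown because Cps1, Ass1 and Asl fell together under several compounds, while Otc moved with another set of compounds. The table held 4 of the 5 genes, and Arg1 had no entry. Capitals mark matches, on either strand, to 1 of 7 motifs: GGGCGG (the GC box), TATAAA (the TATA box), CCAAT as such, TTNNGCAA (C/EBP), TGACGTCA (cyclic AMP response element), CAAAGNNCA (HNF4) and the glucocorticoid response element. The start sites of the Ass1 and Asl windows lie 4965 and 129 bases downstream of the first base of the RefSeq gene model. The Ass1 window therefore does not show the sequence at the start of that gene model.
Cps1 promoter (chr9:76063613-76063912, plus strand): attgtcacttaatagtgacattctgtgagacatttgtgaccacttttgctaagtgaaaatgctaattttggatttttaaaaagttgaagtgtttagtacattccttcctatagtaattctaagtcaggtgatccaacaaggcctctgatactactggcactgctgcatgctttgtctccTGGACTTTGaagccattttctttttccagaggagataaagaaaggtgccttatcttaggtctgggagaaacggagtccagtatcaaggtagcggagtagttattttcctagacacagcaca
Otc promoter (chrX:15202424-15202723, minus strand): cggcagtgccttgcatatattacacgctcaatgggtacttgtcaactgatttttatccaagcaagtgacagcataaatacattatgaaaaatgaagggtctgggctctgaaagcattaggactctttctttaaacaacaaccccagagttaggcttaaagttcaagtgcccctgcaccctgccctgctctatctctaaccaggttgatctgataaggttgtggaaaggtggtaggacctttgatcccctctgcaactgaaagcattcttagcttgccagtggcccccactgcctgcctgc
Ass1 promoter (chr3:35149480-35149779, plus strand): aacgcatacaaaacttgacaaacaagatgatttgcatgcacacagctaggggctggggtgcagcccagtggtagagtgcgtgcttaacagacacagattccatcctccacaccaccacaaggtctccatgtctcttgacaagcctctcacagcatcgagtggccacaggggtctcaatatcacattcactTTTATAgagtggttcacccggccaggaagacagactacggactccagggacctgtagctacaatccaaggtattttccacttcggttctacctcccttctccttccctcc
Asl promoter (chr12:32295658-32295957, plus strand): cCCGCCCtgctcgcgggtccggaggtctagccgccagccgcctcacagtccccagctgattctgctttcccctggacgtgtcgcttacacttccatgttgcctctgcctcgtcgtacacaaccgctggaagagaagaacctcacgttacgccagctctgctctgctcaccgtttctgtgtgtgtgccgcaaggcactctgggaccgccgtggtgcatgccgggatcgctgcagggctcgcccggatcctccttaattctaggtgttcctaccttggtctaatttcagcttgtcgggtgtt
The Cps1 window held the HNF4 letters on the opposite strand, which 6.08% of all 33469 windows of this length also hold. The Ass1 window held TATAAA on the opposite strand, present in 14.2% of all windows, and the Asl window GGGCGG on the opposite strand, present in 33.1%. The Otc window held none of the 7 motifs. The letters of CCAAT (37.5% of all windows), C/EBP (10.6%), the cyclic AMP element (1.83%) and the glucocorticoid element (0.439%) were in none of the 4 windows. No motif was shared by any 2 of the windows, and a match is a description of letters only.

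All 5 enzymes were among the brighter probe sets of the array. Mean log2 levels over 63 arrays were 12.98 for Cps1, 12.36 for Otc, 13.76 for Ass1, 10.96 for Asl and 13.06 for Arg1. Between 94.32% (Asl) and 99.74% (Ass1) of the 15866 probe sets were dimmer, which describes the probe sets and not the amounts of transcript. In the 18 vehicle arrays Cps1 lay between 12.74 and 13.34 with a median of 13.12, Otc between 12.15 and 12.75 with a median of 12.53, and Ass1 between 13.77 and 14.14 with a median of 13.98. Asl lay between 10.67 and 11.52 with a median of 10.88, and Arg1 between 12.73 and 13.22 with a median of 13.02. The vehicle sets of 1 vehicle were also set against each other in 7 comparisons, and 0 of 35 tests of the members were called, with differences between -0.33 and 0.26. Over all probe sets the shares called in either direction were 0.914% for MC set 1 against set 2, 2.14% for set 1 against set 5 and 7.77% for set 1 against set 6. They were 2.72% for set 2 against set 5, 1.95% for set 2 against set 6, 10.2% for set 5 against set 6 and 0.466% for CO set 3 against set 4.

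**Figure D1:**
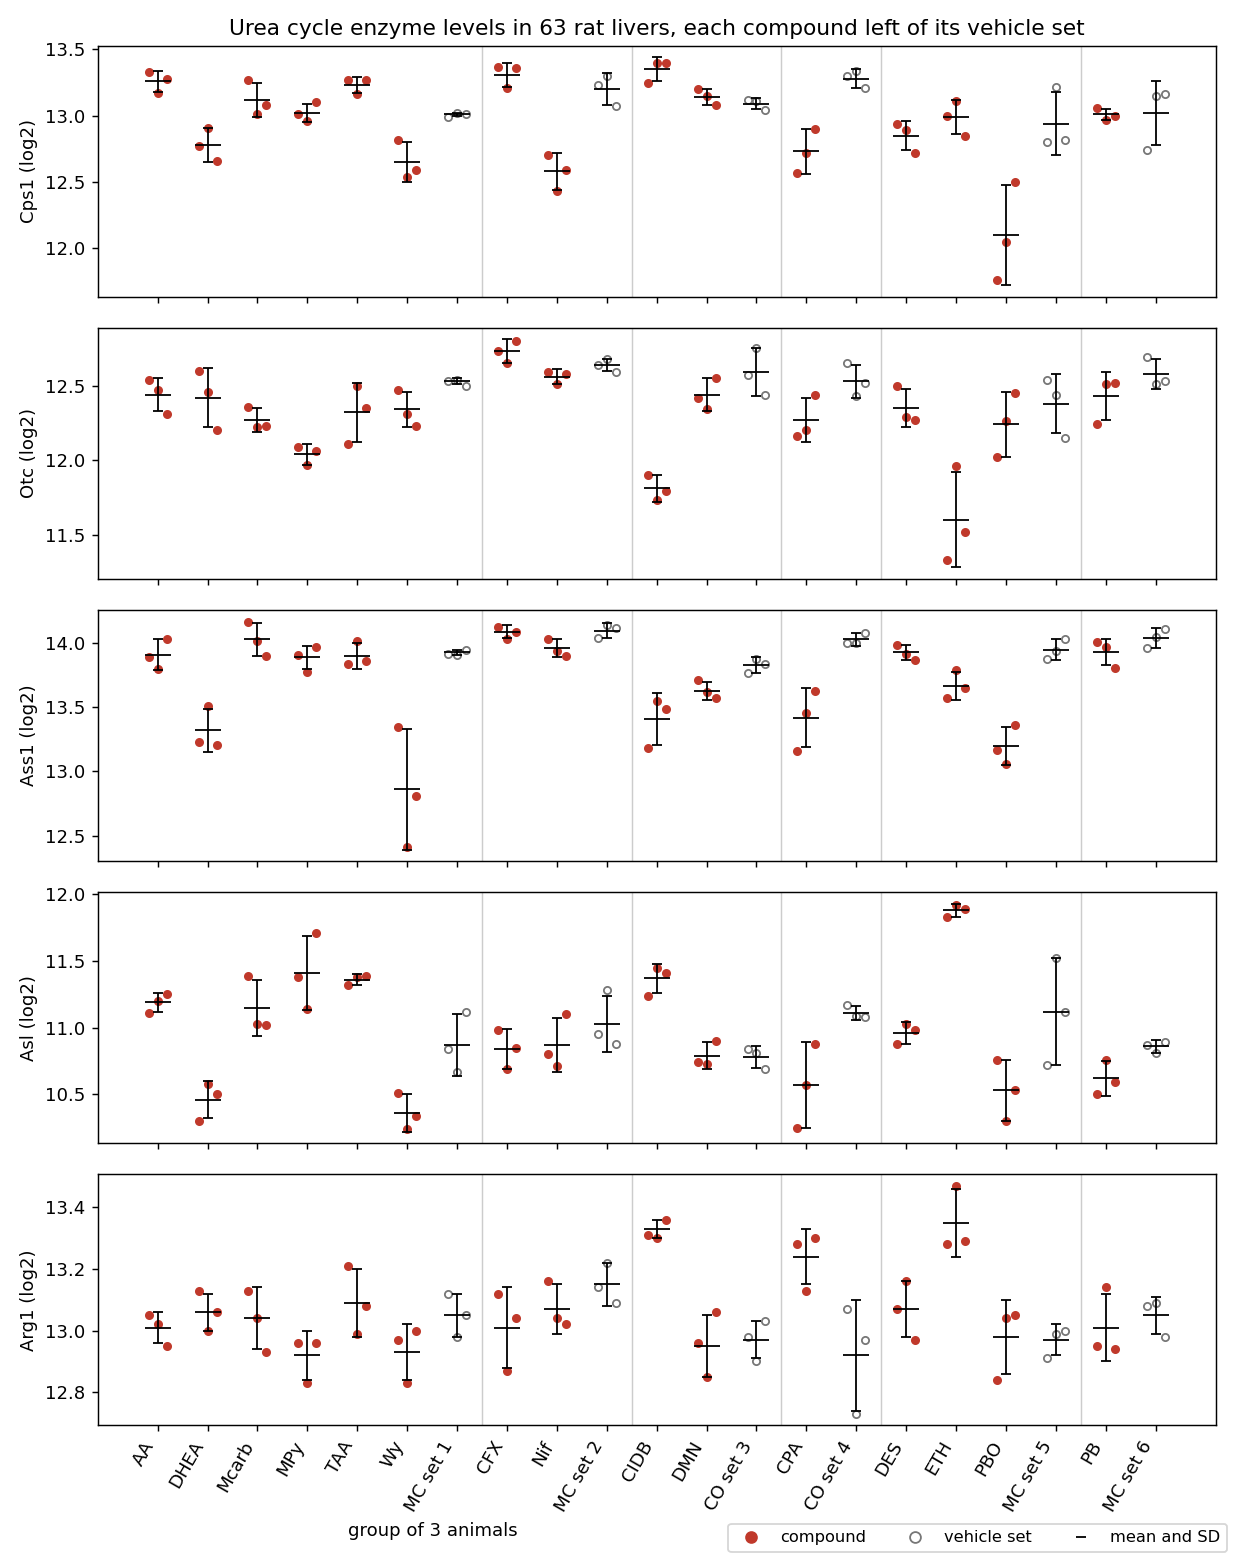
Log2 level of each urea cycle enzyme (y axis of each panel) in the 63 livers, by group of 3 animals (x axis), with each group of compounds left of the vehicle set it shared. Points are animals (filled for compounds, open for vehicle) and black bars are the mean and SD. Cps1 is lowest in PBO (11.76 to 12.50), Otc in ETH (11.33 to 11.96), Ass1 and Asl in Wy, and Asl and Arg1 are highest in ETH.

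Of the 75 tests, 5 enzymes in 15 compounds, 16 showed a lower and 7 a higher level at an adjusted p under 0.05 (limma, Benjamini-Hochberg over all 15866 probe sets within a compound). None reached a fold of 2.5 in either direction. Ass1 fell in 5 compounds, Cps1 in 4 and Otc in 3, and these genes rose in 0. Asl, which splits argininosuccinate, rose in 4 and fell in 4. Arg1, the enzyme that releases urea, rose in 3 and fell in 0. In bulk liver RNA, fewer hepatocytes and less RNA per hepatocyte cannot be told apart.

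In PBO 3 of 5 members fell, against 7.46% of all probe sets, and 0 rose, against 7.03%. In Wy 3 fell, against 6.45%, and 0 rose, against 6.5%. In CPA 3 fell, against 4.73%, and 1 rose, against 3.11%. In DHEA 2 fell, against 8.37%, and 0 rose, against 9.3%. These 4 compounds shared falls of Ass1 and Asl. CIDB had 2 members lower and 2 higher, against 5.75% and 8.14% of all probe sets. ETH had 1 lower and 2 higher, against 11.8% and 11.7%. MPy had 1 lower and 1 higher, against 3.04% and 3.28%. In these 3 compounds it was Otc that fell and Asl that rose. TAA had 0 lower (3.25% of all) and 1 higher (3.15%), and Nif had 1 lower (4.68%) and 0 higher (3.78%).

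In the remaining 6 compounds 0 of 5 members were called in either direction. The shares of all probe sets lower and higher were 1.92% and 2.74% in AA, 8.72% and 6.77% in DES, and 0.92% and 2.31% in DMN. They were 0.284% and 0.782% in Mcarb, 0.384% and 0.964% in PB, and 0% and 0.0063% in CFX. DES thus moved a share of the array as large as PBO did, while its largest change among the members was -0.16 (Asl). The median change of the 5 members ran from -0.59 in PBO, -0.54 in CPA and -0.36 in Wy to 0.25 in CIDB, and the median over all probe sets lay between -0.034 (ETH) and 0.027 (CPA). With 5 members these medians hide opposite movements, as in ETH, where the median was 0.04.

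**Figure D2:**
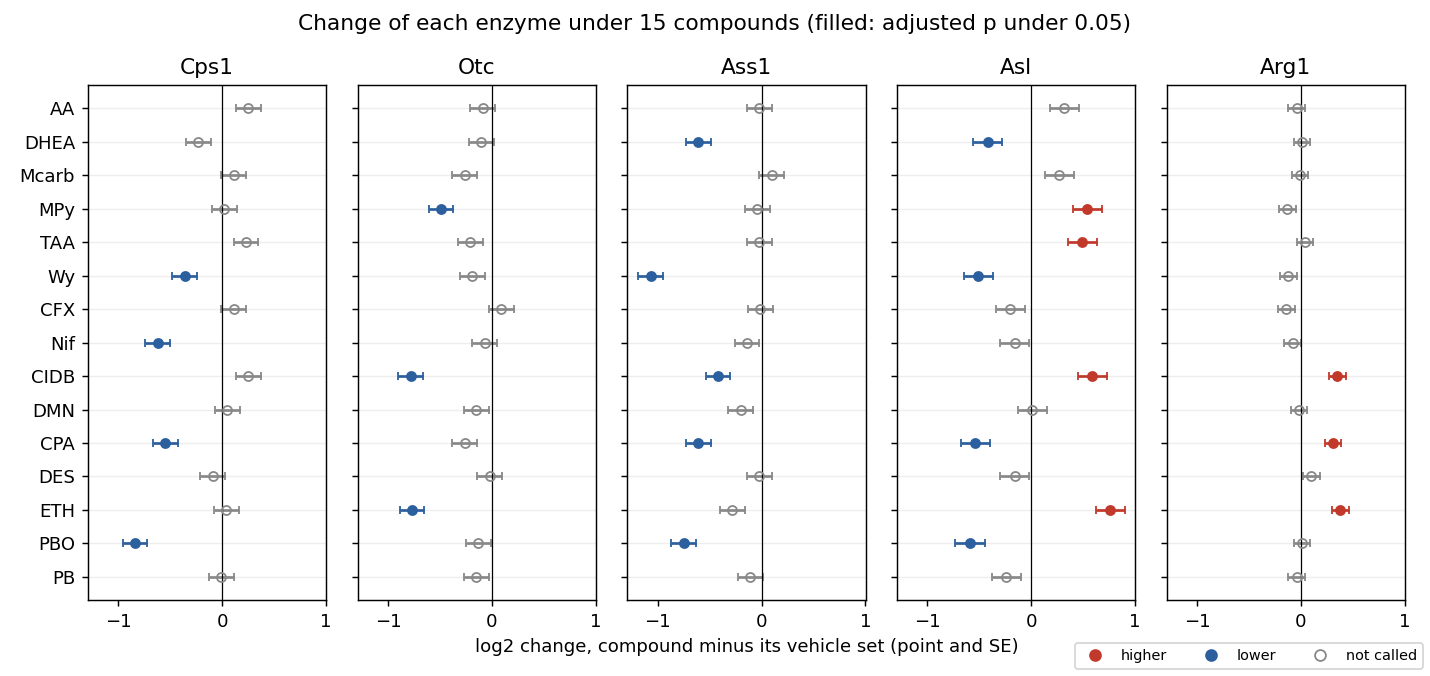
Log2 change of each enzyme (x axis, compound minus its vehicle set, point and SE of the fit) under 15 compounds (rows). Filled blue points are called lower and filled red points higher at an adjusted p under 0.05, and open points are not called. Asl has filled points on both sides of 0, Arg1 on the right alone, and Cps1, Otc and Ass1 on the left alone.

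Cps1, which makes the entry step of the cycle, fell most in PBO. Its levels in PBO livers were 11.76, 12.05 and 12.50 log2, against 12.80, 13.22 and 12.82 in MC set 5. The highest PBO animal lay below the lowest control, and the change was -0.84 ± 0.12 (SE), a 1.79-fold lower level (adjusted p = 5.71e-07). Nif livers had 12.70, 12.43 and 12.59, against 13.23, 13.30 and 13.07 in MC set 2, a change of -0.62 ± 0.12 (adjusted p = 0.000194). CPA livers had 12.57, 12.72 and 12.90, against 13.30, 13.34 and 13.21 in CO set 4, a change of -0.55 ± 0.12 (adjusted p = 0.0013). Neither pair of groups overlapped. In Wy the levels were 12.82, 12.54 and 12.59, against 12.99, 13.02 and 13.01 in MC set 1, and the change of -0.36 ± 0.12 was the smallest called fall of Cps1 (adjusted p = 0.0314). That call was lost without replicate 2 (-0.30, adjusted p = 0.162) or replicate 3 (-0.33, 0.117) of Wy, and without replicate 4, 5 or 6 of MC set 1 (-0.37 with 0.0694, -0.35 with 0.0807 and -0.36 with 0.0786).

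DHEA had Cps1 levels of 12.77, 12.91 and 12.66, all below those of MC set 1, and its change of -0.23 ± 0.12 did not pass (adjusted p = 0.189). In AA, TAA and CIDB the Cps1 animals all lay above their controls, with changes of 0.25, 0.23 and 0.25 ± 0.12 that did not pass either (adjusted p = 0.215, 0.283 and 0.149). The other 7 compounds had Cps1 changes between -0.09 (DES) and 0.11 (CFX and Mcarb). Ordered by group mean, PBO was lowest at 12.10 ± 0.38 (SD, n = 3), followed by Nif at 12.58 ± 0.14 and Wy at 12.65 ± 0.15. Of the 20 steps between neighbours in that order, the step from PBO to Nif was the 1 that exceeded the larger SD of the 2 groups.

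The second Cps1 probe set showed smaller changes. It was called in PBO alone, at 12.34 in PBO livers and 12.80 in MC set 5, a change of -0.46 ± 0.12 (adjusted p = 0.00392). In CPA its change was -0.23 (adjusted p = 0.222) and in Wy -0.27 (adjusted p = 0.133). In Nif it stood at 13.09 in treated livers and 12.98 in MC set 2, a change of 0.10 (adjusted p = 0.645), opposite in sign to the brighter probe set. The fall of Cps1 under Nif therefore rests on 1 of its 2 probe sets.

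Otc, which makes citrulline in the mitochondrion, fell in ETH, CIDB and MPy. ETH livers had 11.33, 11.96 and 11.52 log2, against 12.54, 12.44 and 12.15 in MC set 5, a change of -0.77 ± 0.12 and a 1.71-fold lower level (adjusted p = 1.04e-06). CIDB livers had 11.90, 11.73 and 11.79, against 12.57, 12.75 and 12.44 in CO set 3, a change of -0.78 ± 0.12 and a 1.72-fold lower level (adjusted p = 2.22e-06). MPy livers had 12.09, 11.97 and 12.06, against 12.53, 12.54 and 12.50 in MC set 1, a change of -0.49 ± 0.12 (adjusted p = 0.00533). In all 3 compounds every treated animal was below every control, and all 3 calls remained when any 1 array was left out.

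Elsewhere the Otc changes did not pass, and ran from -0.26 ± 0.12 in CPA and in Mcarb (adjusted p = 0.162 and 0.4) to 0.09 in CFX. In PBO, where Cps1 and Ass1 fell, Otc stood at 12.02, 12.26 and 12.45, against 12.54, 12.44 and 12.15 in MC set 5, and the groups overlapped. The change there was -0.13 ± 0.12 (adjusted p = 0.526, 95% interval -0.37 to 0.10). In the order of group means ETH (11.60 ± 0.32) and CIDB (11.81 ± 0.09) were lowest, then MPy (12.04 ± 0.07). The steps from CIDB to MPy and from MC set 2 to CFX exceeded the larger SD, and the other 18 steps did not.

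Ass1, which joins citrulline and aspartate, showed the largest change of any member. Its levels in Wy livers were 13.35, 12.41 and 12.81 log2, against 13.92, 13.91 and 13.95 in MC set 1. The 3 Wy animals were spread over almost 1 log2 unit and all lay below the controls, with a change of -1.07 ± 0.12, a 2.10-fold lower level (adjusted p = 3.3e-09). PBO livers had 13.17, 13.06 and 13.36, against 13.88, 13.94 and 14.03 in MC set 5, a change of -0.75 ± 0.12 (adjusted p = 9.62e-06). DHEA livers had 13.23, 13.51 and 13.21, against the same MC set 1 as Wy, a change of -0.61 ± 0.12 (adjusted p = 0.000191). In CPA the levels were 13.16, 13.46 and 13.63, against 14.00, 14.00 and 14.08 in CO set 4, a change of -0.61 ± 0.12 (adjusted p = 0.000559). None of these groups overlapped with its controls.

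CIDB had Ass1 levels of 13.18, 13.55 and 13.49, against 13.77, 13.88 and 13.84 in CO set 3, a change of -0.42 ± 0.12 (adjusted p = 0.0126). This call was lost without CIDB replicate 1 (-0.30, adjusted p = 0.14) and without CO set 3 replicate 5 (-0.39, 0.0545). In ETH all 3 animals lay below their controls, and the change of -0.28 ± 0.12 did not pass (adjusted p = 0.0936). The other 9 compounds had Ass1 changes between -0.20 (DMN) and 0.10 (Mcarb). By group mean Wy was lowest at 12.86 ± 0.47, then PBO at 13.20 ± 0.15, DHEA at 13.32 ± 0.17, CIDB at 13.41 ± 0.20 and CPA at 13.42 ± 0.23, and no step between these neighbours exceeded the larger SD.

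Asl, which releases arginine and fumarate, was the member that moved in both directions. It rose most in ETH, where the livers had 11.83, 11.92 and 11.89 log2, against 10.72, 11.52 and 11.12 in MC set 5. The change was 0.76 ± 0.14, a 1.69-fold higher level (adjusted p = 5.5e-05), and the control animals were more widely spread (SD 0.40) than the treated ones (SD 0.05). CIDB livers had 11.24, 11.45 and 11.41, against 10.84, 10.81 and 10.69 in CO set 3, a change of 0.59 ± 0.14 (adjusted p = 0.00322). MPy livers had 11.38, 11.14 and 11.71, against 10.84, 10.67 and 11.12 in MC set 1, a change of 0.54 ± 0.14 (adjusted p = 0.0137). TAA livers had 11.32, 11.38 and 11.39, against the same controls, a change of 0.49 ± 0.14 (adjusted p = 0.0286). All treated animals of these 4 compounds lay above their controls.

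Asl fell in PBO, CPA, Wy and DHEA. PBO livers had 10.76, 10.30 and 10.53, against 10.72, 11.52 and 11.12 in MC set 5, a change of -0.59 ± 0.14 with overlapping groups (adjusted p = 0.00275). Without MC set 5 replicate 8, the highest control, the change was -0.39 and the call was lost (adjusted p = 0.0804). CPA livers had 10.25, 10.57 and 10.88, against 11.17, 11.09 and 11.08 in CO set 4, a change of -0.54 ± 0.14 (adjusted p = 0.0113). Wy livers had 10.51, 10.24 and 10.34, against 10.84, 10.67 and 11.12 in MC set 1, a change of -0.51 ± 0.14 (adjusted p = 0.0111). DHEA livers had 10.30, 10.58 and 10.50, against the same controls, a change of -0.42 ± 0.14 (adjusted p = 0.0357). The groups did not overlap in CPA, Wy and DHEA.

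The calls of Asl were lost more often than those of the other members when 1 array was left out. The CPA call was lost without CPA replicate 1 (-0.38, adjusted p = 0.173) or CO set 4 replicate 1 (-0.52, 0.0565). The Wy call was lost without Wy replicate 2 (-0.45, 0.0785) or MC set 1 replicate 6 (-0.39, 0.118). The DHEA call was lost without DHEA replicate 1 (-0.34, 0.163) or 3 (-0.44, 0.0718) and MC set 1 replicate 4 (-0.44, 0.0664) or 6 (-0.30, 0.241). Among the rises, the ETH and CIDB calls remained in every such fit. The MPy call was lost without MPy replicate 3 (0.39, 0.172) and MC set 1 replicate 4 (0.52, 0.0569) or 5 (0.43, 0.123). The TAA call was lost without any 1 of its own replicates 1, 2 and 3 (0.51, 0.49 and 0.48, adjusted p = 0.0661, 0.0624 and 0.0903) and without MC set 1 replicate 4 (0.47, 0.0948) or 5 (0.39, 0.173). The TAA change was 0.49 in the full fit, so it hardly moved without its own replicates, and its call lay near the threshold.

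The second Asl probe set moved like the first. It was higher in ETH (0.87 ± 0.13), CIDB (0.68), MPy (0.67) and TAA (0.50), and lower in PBO (-0.60), Wy (-0.44) and DHEA (-0.40), all past the threshold, with adjusted p between 1e-06 and 0.028. In CPA its change of -0.31 ± 0.13 did not pass (adjusted p = 0.139). Group means of the first probe set ran from 10.36 ± 0.14 in Wy, 10.46 ± 0.14 in DHEA, 10.53 ± 0.23 in PBO and 10.57 ± 0.32 in CPA to 11.36 ± 0.04 in TAA, 11.37 ± 0.11 in CIDB, 11.41 ± 0.28 in MPy and 11.88 ± 0.05 in ETH. The step from MPy to ETH, at 0.47, was the widest of the 3 steps that exceeded the larger SD.

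**Figure D3:**
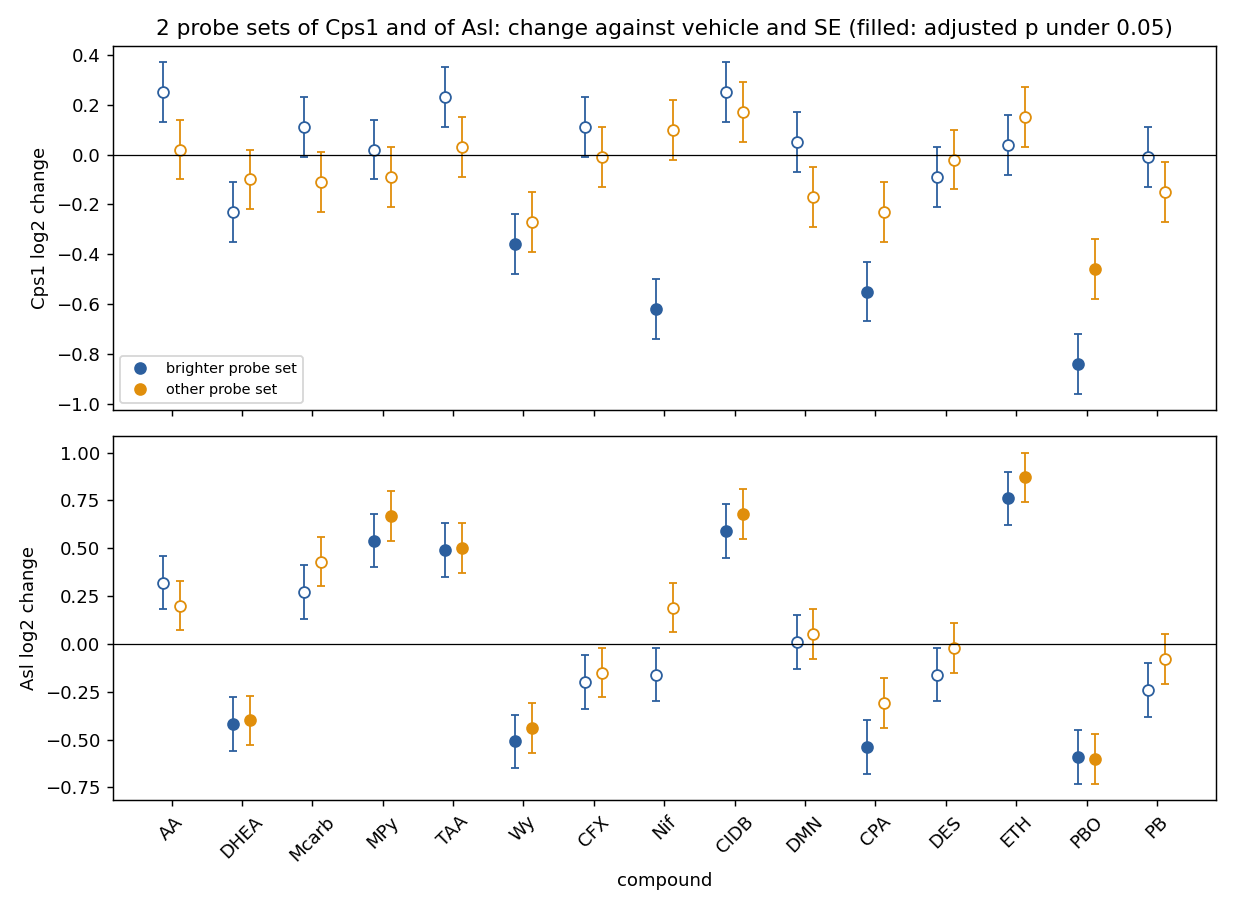
Log2 change against the vehicle set (y axis, point and SE of the fit) for both probe sets of Cps1 (upper panel) and of Asl (lower panel) under each compound (x axis). Blue is the brighter probe set, orange the other, and filled points have an adjusted p under 0.05. The probe sets of Cps1 part under Nif (-0.62 and 0.10), and those of Asl keep the same sign wherever either is called.

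Arg1, the last enzyme of the cycle, stayed within the narrowest range, from -0.14 in CFX to 0.38 in ETH. ETH livers had 13.28, 13.47 and 13.29 log2, against 12.91, 12.99 and 13.00 in MC set 5, a change of 0.38 ± 0.08 and a 1.30-fold higher level (adjusted p = 0.00017). CIDB livers had 13.31, 13.30 and 13.36, against 12.98, 12.90 and 13.03 in CO set 3, a change of 0.35 ± 0.08 (adjusted p = 0.000967). CPA livers had 13.28, 13.13 and 13.30, against 13.07, 12.73 and 12.97 in CO set 4, a change of 0.31 ± 0.08 (adjusted p = 0.00688). In each case the lowest treated animal was above the highest control. The CPA call was lost without CO set 4 replicate 2, the lowest control (0.21, adjusted p = 0.111). In PBO, where 3 of the other members fell, Arg1 changed by 0.01 ± 0.08 (95% interval -0.15 to 0.17). Of the 20 steps in the order of group means, 0 exceeded the larger SD.

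Members of the cycle thus moved unequally within the same animals, and this was tested on the difference of 2 members within each array. Of the 150 differences, 10 pairs in 15 compounds, 44 were called. ETH had 9 of 10 pairs called, CIDB 6, MPy and PBO 5 each, CPA, DHEA, Nif and Wy 4 each, TAA 3, and the other 6 compounds 0. Pairs with Cps1 used its brighter probe set alone. All 4 pairs called in Nif were pairs with Cps1, whose other probe set changed by 0.10 there, so they rest on 1 probe set. The widest was Otc minus Asl in ETH at -1.53 ± 0.17 (adjusted p = 1.01e-09), with -1.36 ± 0.17 in CIDB (4.02e-08), -1.02 ± 0.17 in MPy (5.19e-05) and -0.70 ± 0.17 in TAA (0.00722). In PBO the change of Cps1 was lower than that of Otc by -0.71 ± 0.13 (8.57e-05) and than that of Arg1 by -0.85 ± 0.12 (5.19e-07). In CPA the changes of Cps1, Otc, Ass1 and Asl each differed from that of Arg1, by -0.87, -0.58, -0.93 and -0.86 (adjusted p = 1.02e-06, 0.000698, 1.31e-06 and 5.91e-05). In Wy the fall of Ass1 was deeper than that of Cps1 (Cps1 minus Ass1 0.71 ± 0.12, 1.07e-05) and than that of Asl (Ass1 minus Asl -0.56 ± 0.14, 0.00385).

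Across the 21 group means, which share vehicle sets and arrays normalized together, Pearson's r was 0.56 for Cps1 with Ass1, 0.52 for Cps1 with Asl and -0.58 for Otc with Asl and for Otc with Arg1. The rank correlations were closer to 0, at -0.31 for Otc with Asl and -0.17 for Otc with Arg1. Deviations of the 63 arrays from their group means were positively correlated in all 10 pairs, with r between 0.13 (Otc with Asl) and 0.53 (Cps1 with Ass1). These are descriptions with no test.

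**Figure D4:**
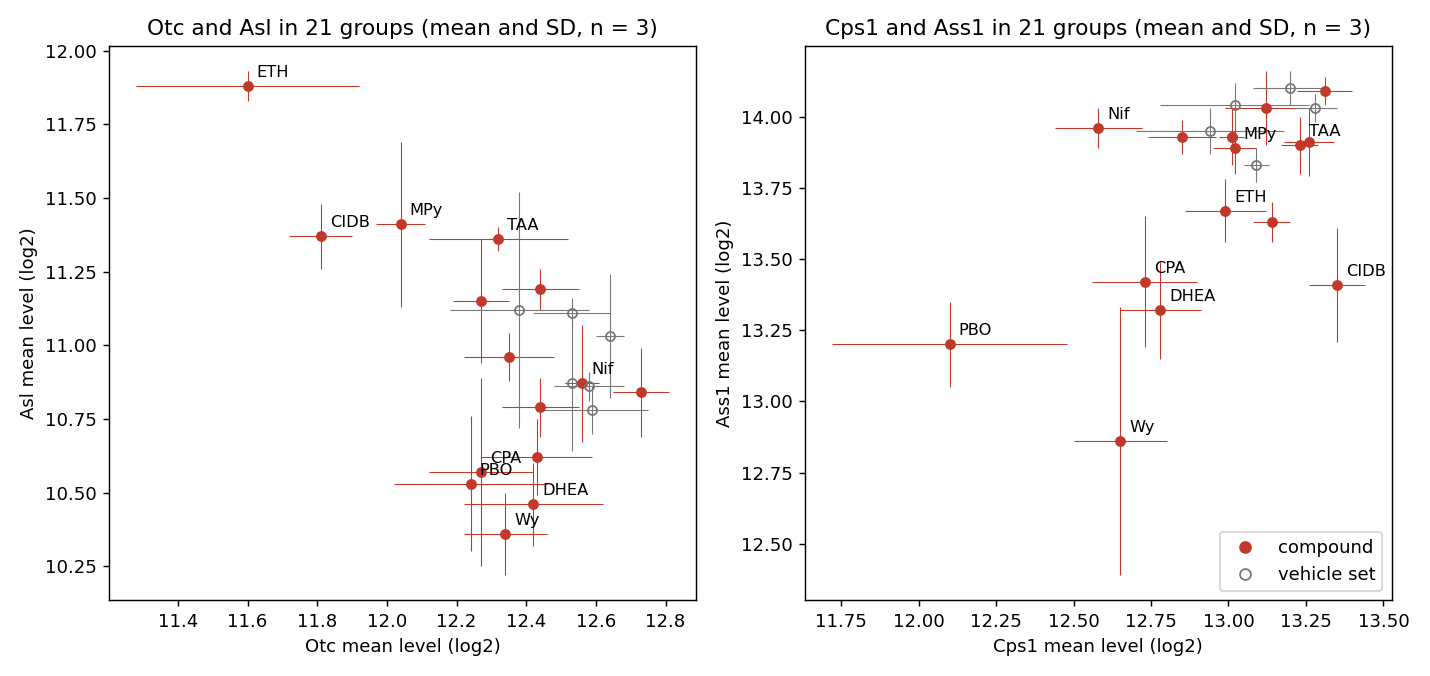
Group mean log2 levels of Otc and Asl (left panel) and of Cps1 and Ass1 (right panel) in the 21 groups of 3 animals, with SD bars, filled for compounds and open for vehicle sets. ETH, CIDB and MPy lie at low Otc and high Asl, while PBO, Wy, CPA and DHEA lie at low Cps1 and low Ass1. Nif lies at low Cps1 (12.58) with Ass1 at 13.96, and CIDB at low Ass1 (13.41) with the highest Cps1 (13.35).

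Compounds of 1 control set and dosing time were also set against each other directly, at doses that differed. DHEA had lower Cps1, Ass1 and Asl than AA (-0.48 ± 0.12, -0.59 ± 0.12 and -0.73 ± 0.14, adjusted p = 0.00293, 0.000403 and 0.000208), 3 of 5 members against 6.33% of all probe sets lower. The same 3 genes were lower in DHEA than in Mcarb (-0.34, -0.71 and -0.69, adjusted p = 0.033, 1.64e-05 and 0.000332), against 11.2% of all. In DES, Cps1, Ass1 and Asl were higher than in PBO (0.75, 0.73 and 0.43, adjusted p = 4.31e-06, 1.31e-05 and 0.0376), against 5.29% of all. Otc and Arg1 were called in none of these 3 comparisons. Cps1 was read here on its brighter probe set alone. Means of its other probe set were 12.82 in DHEA, 12.95 in AA and 12.82 in Mcarb, and 12.79 in DES and 12.34 in PBO. The differences between these means were not tested. The lower Cps1 in DHEA than in Mcarb therefore rests on 1 of its 2 probe sets.

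CIDB against DMN showed the other arrangement. Otc was lower in CIDB by -0.63 ± 0.12 (adjusted p = 0.000115), 1 of 5 against 6.51% of all probe sets lower. Asl and Arg1 were higher, by 0.58 ± 0.14 (0.00407) and 0.37 ± 0.08 (0.000577), 2 of 5 against 6.35% higher. Nif had lower Cps1 than CFX (-0.74 ± 0.12, adjusted p = 7.8e-06), 1 of 5 against 4.51% lower, on the brighter probe set alone. Mcarb against AA and MPy against TAA gave 0 calls among the members, against 5.17% and 2.11% of all probe sets in either direction. The 95% intervals of the 5 differences were bounded by -0.41 and 0.37 for Mcarb against AA and by -0.52 and 0.33 for MPy against TAA, so differences within these bounds remain possible. AA and its sulfur analog TAA were given at different doses and times, and stood at 11.19 and 11.36 log2 for Asl and 12.44 and 12.32 for Otc.

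The study grouped compounds by carcinogenic class, and the changes of each enzyme were compared over compounds. CPA, TAA and Wy, whose class the study left undefined, entered no class contrast. The 10 carcinogens had a mean Otc change of -0.29 ± 0.28 (SD over compounds) and the 2 non-carcinogens, CFX and Nif, of 0.01, a difference of -0.30 (exact two-sided permutation p = 0.106, smallest possible 0.0152). For Asl the means were 0.11 ± 0.46 and -0.18 (exact permutation p = 0.424), and for Cps1 -0.04 ± 0.32 and -0.26 (exact permutation p = 0.5). The 8 non-genotoxic carcinogens differed from the 2 genotoxic ones, CIDB and DMN, by 0.21 for Otc and -0.24 for Asl (exact permutation p = 0.378 and 0.511). None of the 15 such tests passed, with Benjamini-Hochberg values from 0.644 to 0.844. The contrasts with 8 compounds cannot give a p below 0.0222. CIDB and DMN shared a set of corn oil controls, while the 8 non-genotoxic carcinogens had methylcellulose controls. Class and vehicle therefore cannot be told apart between these groups. CFX and Nif shared MC set 2, against which no carcinogen was set. Its mean Otc level, 12.64 log2, was the highest of the vehicle sets. The permutations treated compounds as independent, although several shared their controls.

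Genes around the cycle were read from lists of 48 genes, of which 41 were measured: enzymes and carriers that feed it, users of ornithine and arginine, genes of ammonia and glutamine handling, and regulators. PBO had 14 of 41 lower and 3 higher (7.46% and 7.03% of all probe sets), and DES 13 and 3 (8.72% and 6.77%). ETH had 12 and 8 (11.8% and 11.7%), DHEA 11 and 7 (8.37% and 9.3%), and CIDB 9 and 4 (5.75% and 8.14%). Wy had 8 and 4 (6.45% and 6.5%) and CPA 7 and 2 (4.73% and 3.11%), while PB and CFX had 0 and 0. The remaining compounds had 0 to 4 lower and 0 to 4 higher, with shares of 0.284% to 4.68% lower and 0.782% to 3.78% higher. In PBO and DES the higher counts were near the share of all probe sets. Prodh, which degrades proline, was lower in 9 compounds and higher in 0, down to -1.85 ± 0.19 in PBO (adjusted p = 9.02e-10). Gls2, the liver glutaminase that releases ammonia for CPS1, was lower in 6, with -1.26 ± 0.16 in PBO (1.32e-07), -1.16 ± 0.16 in DES (4.37e-07), -1.05 ± 0.16 in CIDB (4.1e-06), -0.79 ± 0.16 in DHEA (0.00032), -0.66 ± 0.16 in Wy (0.00357) and -0.56 ± 0.16 in CPA (0.0238). Car5a, the mitochondrial carbonic anhydrase that supplies bicarbonate, was lower in 4, with -1.67 ± 0.27 in ETH, -1.33 ± 0.27 in Wy, -1.23 ± 0.27 in DHEA and -1.21 ± 0.27 in CIDB (adjusted p = 3.78e-06, 0.000377, 0.000684 and 0.00117).

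Among the 12 measured users of ornithine and arginine, Oat and Odc1 were mostly called in opposite directions. Oat, ornithine aminotransferase, was lower in 5 compounds, with -3.16 ± 0.37 in DMN, -2.87 ± 0.37 in PBO, -2.61 ± 0.37 in TAA, -1.66 ± 0.37 in DHEA and -1.08 ± 0.37 in DES (adjusted p = 2.78e-08, 9.95e-08, 3.35e-06, 0.000745 and 0.035). DMN and DES had 0 of 5 members called. Odc1, ornithine decarboxylase at the head of polyamine synthesis, was higher in 6 and lower in 1, with 0.85 ± 0.14 in MPy (5.33e-05) and 0.69 ± 0.14 in TAA (0.00128). Glul, glutamine synthetase of hepatocytes around the central vein, which takes up ammonia that the cycle leaves, was higher in ETH by 1.19 ± 0.19 (2.07e-06) and lower in DES, DMN and TAA. Slc38a3, a glutamine transporter, was lower in 7 compounds, with -0.72 ± 0.10 in Wy (2.64e-07). Slc25a12, an aspartate and glutamate carrier of mitochondria, was higher in ETH by 1.10 ± 0.12 (1.47e-09). Got2, the mitochondrial aspartate aminotransferase, was lower in CIDB by -0.64 ± 0.06 (8.96e-12).

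Among regulators, Nr3c1, the glucocorticoid receptor, was lower in 6 compounds, with -0.91 ± 0.21 in MPy (adjusted p = 0.00336), -0.85 ± 0.21 in Wy (0.00328) and -0.74 ± 0.21 in CPA (0.0193). Fgf21, a hormone of fasting and stress, was higher in MPy by 3.80 ± 0.32 (2.09e-12) and in DHEA by 1.86 ± 0.32 (2.1e-05). The DHEA animals were widely spread, with a mean of 9.13 and an SD of 1.64, against 7.27 and 0.11 in MC set 1, without overlap. The SE comes from a spread shared by all groups and does not show this. Under Nif the probe sets of Cebpa and Hnf4a, transcription factors of hepatocytes, were lower by -1.69 ± 0.16 and -1.23 ± 0.12 (4.62e-11 and 1.59e-10), in the same livers in which the 2 Cps1 probe sets disagreed. Hnf4a was higher in 4 other compounds, by 0.85 ± 0.12 in AA, 0.68 ± 0.12 in PBO, 0.60 ± 0.12 in CIDB and 0.59 ± 0.12 in DHEA (6.14e-06, 5.23e-05, 0.000315 and 0.00028), and Cebpa in DHEA, by 0.68 ± 0.16 (0.00146). Mean Hnf4a also differed between vehicle sets, at 8.72 in the controls of PBO and DES and 9.06 in those of AA and DHEA. It was 9.34 in the controls of CIDB and 9.68 in those of CPA. The DHEA mean of 9.65 lay within this range, and the AA and CIDB means of 9.92 and 9.94 lay above it. The rises of Hnf4a are therefore stated only against each compound's own vehicle set, and their size depends on that set. Klf15, Ppargc1a, Foxa2 and Cebpb, also known regulators of the cycle or of amino acid breakdown, were called in 0 of 15 compounds. Ppargc1a was dim, at 4.68 in MC set 1, where the lowest value of all arrays was 3.96. The SE of Foxa2 was 0.37, so only large changes of it could be called. The lack of calls therefore does not show that these genes were unchanged.

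Marker lists moved beside the members in several compounds. Gls2 in the periportal list, and Oat and Glul in the pericentral list, were already counted above among the genes around the cycle. The lists are therefore not separate from those counts. Over all probe sets the shares lower were 8.37% in DHEA, 7.46% in PBO, 6.45% in Wy, 5.75% in CIDB and 4.73% in CPA. They were 8.72% in DES, 3.04% in MPy, 11.8% in ETH and 0.92% in DMN. A periportal list without the members, 8 genes measured, had 6 lower in DHEA (median -0.67), 5 in PBO (-0.77), 4 in Wy (-0.59) and 3 in CIDB (-0.47), CPA (-0.38), DES (-0.32) and MPy (-0.30). Its summed signal was 16100 to 22000 in PBO livers, against 31500 to 33400 in MC set 5, and 15800 to 23600 in DHEA livers, against 29500 to 32800 in MC set 1. In ETH, where Otc fell and Asl rose, 2 of 8 were lower (median -0.17). In each of DHEA, Wy, CIDB, DES and ETH 1 of the 8 was higher, where 6.5% (Wy) to 11.7% (ETH) of all probe sets were higher. A pericentral list, 10 genes measured, had 2 lower in PBO (median -0.42), with a summed signal of 22900 to 27100 in PBO livers, against 36600 to 41400 in MC set 5. DES had 5 of these 10 lower (median -0.81), with 21100 to 28800 in DES livers, against the same set, and DMN had 5 lower (median -0.72), with 16700 to 20200 in DMN livers, against 31200 to 39100 in CO set 3. In Wy and CPA 2 of these 10 were lower (medians -0.08 and -0.21), and in DHEA 2 were lower and 2 higher (-0.22). The summed signals were 24700 to 30200 in Wy livers and 27700 to 30900 in DHEA livers, against 32600 to 36600 in MC set 1. In CPA livers the sum was 21200 to 28400, against 29100 to 42000 in CO set 4. CIDB had 1 lower and 1 higher (median 0.01), MPy 1 lower (0.02) and ETH 2 higher (-0.05). A hepatocyte list had 6 of 7 lower in DHEA and in Wy (medians -0.21 and -0.22), with summed signal of 119000 to 125000 in DHEA livers and 120000 to 129000 in Wy livers, against 140000 to 143000 in MC set 1. It had 3 lower and 1 higher in DES (median -0.12), where 0 members were called. PBO had 2 lower and 1 higher (-0.12), CPA 2 lower (-0.07), and ETH 1 lower and 2 higher (0.03). MPy had 1 lower (0.02) and DMN 1 higher (-0.03). Shares of all probe sets higher were 6.77% in DES, 7.03% in PBO, 11.7% in ETH and 2.31% in DMN.

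A macrophage list had 6 of 7 higher in ETH (median 1.22), against 11.7% of all probe sets. Its summed signal was 15200 to 16200 in ETH livers, against 5810 to 7410 in MC set 5. In CIDB 3 of 7 were higher (median 0.52, 8.14% of all), with a summed signal of 7140 to 7460, against 5290 to 7000 in CO set 3. DMN, set against the same CO set 3, also had 3 of 7 higher (median 0.61, 2.31% of all). The summed signal in DMN was 8670 to 10100, and its Arg1 change was -0.02 ± 0.08. In Wy 4 of 7 were lower (6.45% of all) and in DHEA 5 of 7 (8.37%). In CPA 4 of 7 were lower (median -0.85, 4.73% of all), although the summed signal of 7100 to 7810 in CPA livers overlapped the 7000 to 9760 in CO set 4. Arg1, which some macrophages also express, rose in ETH, CIDB and CPA. The erythroid list, 2 genes measured, had both lower in CIDB (median -3.84, 5.75% of all) and in CPA (-1.06, 4.73%). The part of these cell types in the changes of the members was not tested.

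The genes whose 21 group means ran most like each member were named by Pearson's r among 10406 genes with a symbol of their own. For Ass1 these were Slc38a3 (0.91), Dgat2 (0.88), an enzyme of triglyceride synthesis, and Spp2 (0.86). For Otc they were Apoc1, an apolipoprotein (0.90), Bmf (0.88) and Echs1, an enzyme of mitochondrial fatty acid oxidation (0.87). Asl ran with Ctla2a (0.85), Pla1a (0.83) and Ppt1 (0.83). Cps1 had no gene above 0.76, the value of Fga, the fibrinogen alpha chain, Gnb4 and Serpind1. Arg1 ran with Igfbp2 (0.71), Atp6v1f (0.70) and Tdo2 (0.70), the enzyme that opens tryptophan breakdown, and the rank correlation with Igfbp2 was 0.32. The 21 means share vehicle sets, and these values describe likeness only.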

How the data were processed

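RNA of 63 rat livers was hybridised to Affymetrix RAE230A arrays. The deposited values are log2 levels that the authors made from MAS 5 CEL files with RMA (background correction, normalization between arrays and summary to 1 value per probe set). Its version is not given in the sources used here. Array medians lay between 7.42 and 7.51, and no further normalization was applied. Each array's mean correlation with its group was 0.9886 to 0.9956, and no columns were identical (0).

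In the array annotation 12783 probe sets had 1 gene symbol, 312 several and 2771 none. A model with 1 mean for each of 21 groups was fitted to all 63 arrays and 15866 probe sets with limma 3.58.1 (R 4.3.3), with 42 residual and 4.81 prior degrees of freedom, and the residual SD had a median of 0.117 log2. P-values were adjusted by Benjamini-Hochberg within each comparison and called under 0.05. Single 3 against 3 comparisons by exact permutation cannot go below p = 0.1. The number of arrays, 3 a group, limits the precision. Differences between 2 members were fitted as 10 further rows. The fit was tested on simulated data with known changes. Figures were drawn in Python 3.11.15 with matplotlib 3.10.9 and pandas 2.3.3.

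The members, lists, comparisons, alternatives and rules for naming genes were chosen with earlier results of these data known. Genes named are the 5 members, the 3 genes most like each by Pearson's r, and up to 4 called genes of the pathway lists per compound with a called member. Klf15, Ppargc1a, Foxa2 and Cebpb were named after their values were seen, as listed genes without calls, and so were the further compounds given for Oat, Gls2, Hnf4a and Cebpa. Alternatives covered the samples fitted, array weights, pooled controls, the prior, centring, quantile normalization, dim probe sets, the choice of probe set, thresholds and leaving out each array. Protein and microRNA measurements were not used here.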

Additional observations from a re-analysis of the deposited data

How the results depend on the processing

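Of the 23 calls, 14 remained in every fit that left out 1 array and 9 were lost in at least 1, 0 were gained and 0 turned direction; the numbers of calls ran from 5 to 7 higher and 13 to 16 lower. A total of 13 calls remained under every other setting tried except the fold criterion and the added Cps1 probe set: Cps1 in CPA and PBO, Otc in CIDB, ETH and MPy, Ass1 in CPA, DHEA, PBO and Wy, Asl in CIDB and ETH, and Arg1 in CIDB and ETH. A fold over 2.5 left 0 higher and 0 lower. An adjusted p under 0.01 lost 7 calls. Fits to the 6 compared arrays alone lost Asl in CPA, MPy and PBO and Arg1 in CPA (adjusted p = 0.0573, 0.0723, 0.0971 and 0.115). Array weights added Otc in CPA and DMN (0.0448 and 0.016). A different prior, centring, quantile normalization and the restriction to brighter probe sets changed 0 calls.

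Pooling the controls by vehicle lost Asl in CPA (0.058) and added Cps1 in DHEA, Ass1 in ETH and Otc in PBO (0.0444, 0.00622 and 0.0322). It moved the median change of the members to 0.08 in CFX, 0.16 in CIDB, -0.12 in DMN, -0.05 in Nif and -0.08 in PB, and the Otc difference of carcinogens from non-carcinogens to -0.45 (exact permutation p = 0.0455). That p is not adjusted for the 15 class tests, so it does not show that Otc separates the classes. The probe set with the widest interquartile range gave medians of -0.08 in Nif and -0.08 in PB and lost Asl in CPA (0.139). The mean of all probe sets gave -0.08 in Nif and lost Cps1 in Nif (-0.26, adjusted p = 0.0877). The other Cps1 probe set, an alternative chosen after seeing the data, gave 13 lower calls, turned Cps1 in Nif to 0.10, and gave medians of -0.26 in CPA, -0.15 in DMN, -0.08 in Nif and -0.15 in PB. Leaving out 1 array moved the medians within -0.13 to 0.04 in DES, -0.03 to 0.18 in ETH, -0.17 to -0.05 in Nif and -0.15 to -0.05 in PB. The causes were not tested.

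Replicate numbers were shared by a compound and its controls for PB and CPA alone. Deviations of same-numbered animals correlated at -0.15, -0.05 and -0.05 in PB and at -0.15, 0.17 and 0.07 in CPA, so the samples share only a number. The fit with a replicate block changed 0 of 10 member calls, and the probe sets called were 286 with and 214 without the block in PB, and 1230 and 1245 in CPA.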
